A study of Mus musculus with 12 samples.

Results

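The genes described here encode the proteasome, its activators, its inhibitor and the chaperones that assemble it. They were chosen by name alone, as every gene symbol that begins with Psma to Psmg followed by a digit and does not carry the pseudogene ending -ps, which gave 50 of the 28643 gene symbols analysed. Of these, 7 encode the ordinary alpha subunits and 7 the ordinary beta subunits of the 20S core, 6 the ATPases and 11 the other subunits of the 19S particle, and 5 are activator genes. Psmc3ip fits the name pattern but encodes a meiotic recombination factor, not a proteasome protein, and it is kept in the counts because the choice was made by name.

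The proteasome is the protease that degrades ubiquitin-tagged proteins. Its 20S core is a barrel of alpha and beta rings with the proteolytic sites inside, and the 19S particle on its ends recognises ubiquitin chains, removes them and unfolds the substrate with a ring of ATPases. Some subunits have stand-ins: Psmb8, Psmb9 and Psmb10 replace the catalytic beta subunits in immune cells, Psmb11 does so in the thymic cortex, and Psma8 takes the place of Psma7 in male germ cells, in which the activator Psme4 (PA200) is also abundant and takes part in the degradation of histones during spermatid maturation.

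The data were poly(A) RNA sequencing of round spermatids, the haploid cells that follow meiosis, isolated from the testes of male mice aged 8 weeks by flow sorting, with cycloheximide present throughout to hold ribosomes on their mRNAs. Each cell extract was sequenced both as total input (RNA-seq) and as the mRNA bound by at least 4 ribosomes (ribosome nascent-chain complex sequencing, RNC-seq). The control group was heterozygous, Igf2bp3+/-, and the other group was homozygous, Igf2bp3-/-, so that no group here carries 2 intact copies of Igf2bp3, the gene of an mRNA-binding protein. The homozygous mutation was a Cas9-made frameshift, and by the study's methods the Igf2bp3-/- males used for these experiments were selected for impaired fertility. There were 3 replicates for each combination of genotype and assay and 12 libraries in all.

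Levels were given as FPKM, fragments counted per unit of transcript length and of library size, so levels can be compared between genes per length. The table holds no read counts, and the depth of each library is therefore unknown. The most abundant symbol, CT010467.1, held 9.22% to 13.3% of the summed FPKM in Igf2bp3+/- RNA-seq and 5.68% to 9.25% in Igf2bp3-/- RNA-seq. In RNC-seq it held 15.9% to 19.4% in Igf2bp3+/- and 8.14% to 14.6% in Igf2bp3-/-. Between 21490 and 25633 symbols were above 0 in a library, and replicates correlated with r between 0.961 and 0.990 over the 12265 symbols with a mean above 1 FPKM. The 12 round spermatid markers were present in all groups, summing to between 1774 and 2882 FPKM, whereas the 7 spermatogonial markers summed to between 7.41 and 10.4 FPKM and the Sertoli cell markers (6 of 7 in the table) to between 1.40 and 7.95 FPKM. The 8 spermatocyte markers summed to between 102 and 221 FPKM. Leydig cell markers ran from 6.75 to 103 FPKM, highest in Igf2bp3-/- RNC-seq. The 7 elongating spermatid markers, at 9383 to 22310 FPKM, lay above the round spermatid sum. They include Prm1, Prm2, Tnp1 and Tnp2, mRNAs that the study also measured by qPCR in isolated round spermatids, so the sum is not a measure of elongating cells. Igf2bp3 itself was at 38.2, 38.6 and 33.4 FPKM in Igf2bp3+/- and at 31.7, 32.5 and 31.4 FPKM in Igf2bp3-/- RNA-seq, which does not check the genotype, since a frameshift need not remove the transcript.

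Most proteasome genes were expressed well above the typical gene of these cells. In Igf2bp3+/- RNA-seq, 46 of 50 had a mean above 0.1 FPKM, 42 above 1 FPKM, 36 above 10 FPKM and 8 above 100 FPKM. Of all symbols, 71.5%, 43.2%, 18.5% and 3.32% passed the same levels. The 4 genes at or below 0.1 FPKM were Psmb8, Psmb9, Psmb11 and Psme2b. The plot of levels by library shows that the genes of 1 complex differed far more from each other than the libraries did for any single one of the abundant genes.

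**Figure D1:**
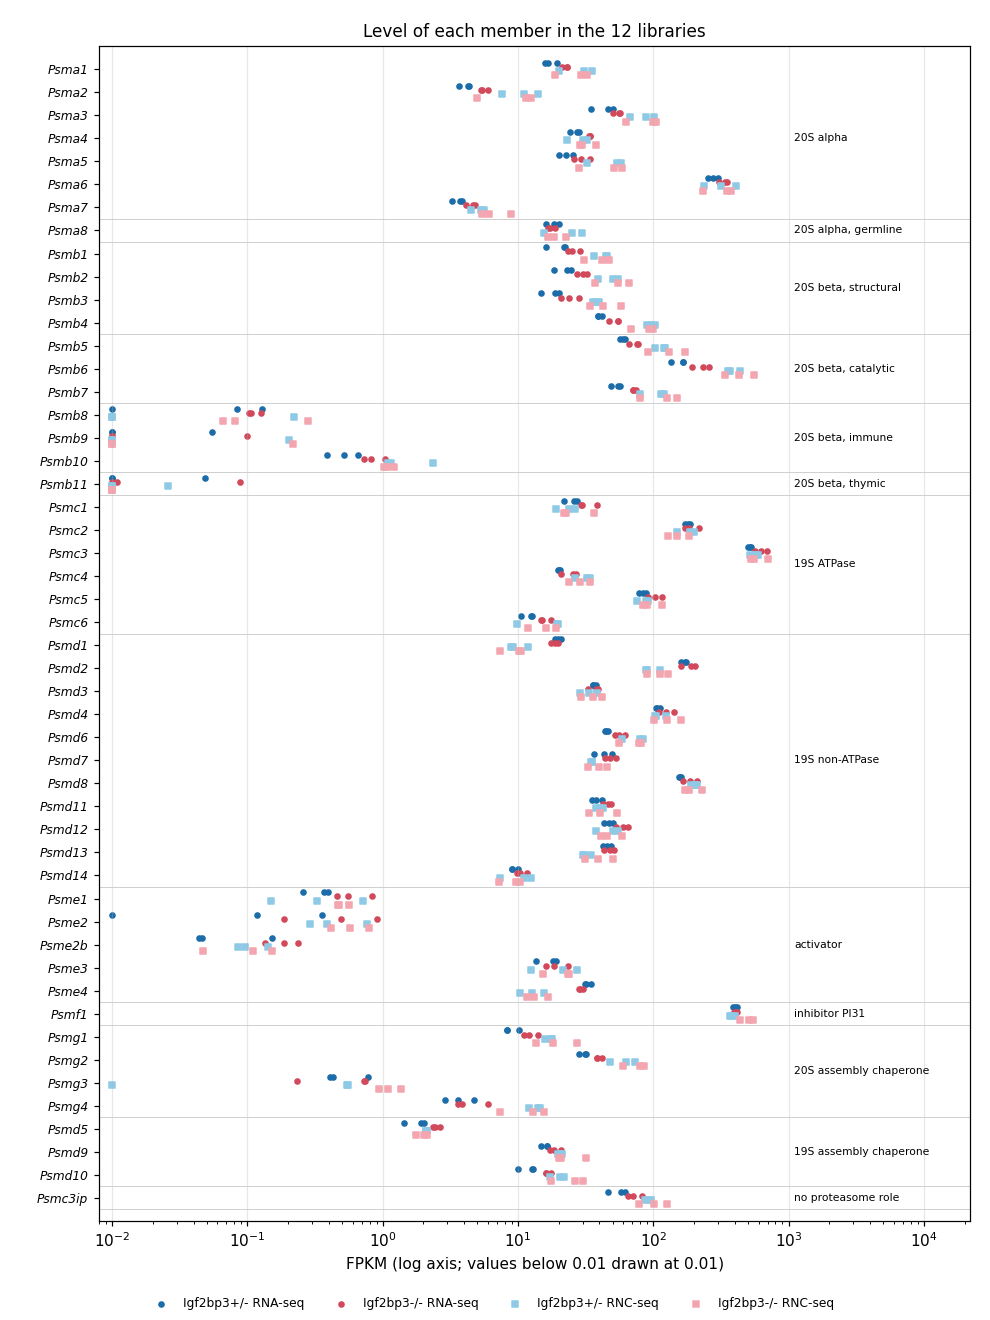
FPKM of each of the 50 genes (rows, grouped by role) in the 12 libraries on a log axis; circles are RNA-seq, squares RNC-seq, blue Igf2bp3+/- and red Igf2bp3-/-, and values below 0.01 are drawn at 0.01. The immune and thymic beta genes and Psme1, Psme2 and Psme2b lie at the left, and Psmc3, Psmf1 and Psma6 at the right, in all groups.

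Of the classes of the core and the 19S particle, the alpha ring was the least even. Psma7 was its lowest member, with 3.84, 3.74 and 3.25 FPKM in the Igf2bp3+/- RNA-seq libraries, and Psma6 was its highest, with 274, 302 and 252 FPKM. The means of these 2 genes, whose products stand in 1 ring, were 76.5-fold apart. The beta ring spanned 8.69-fold, from Psmb3 at 17.9 ± 2.72 FPKM to Psmb6 at 156 ± 17.3 FPKM (mean ± SD, n = 3). Among the catalytic subunits, Psmb6 (caspase-like site) lay above Psmb5 (chymotrypsin-like site), at 61.4, 59.7 and 56.4 FPKM, and Psmb7 (trypsin-like site), at 54.7, 57.1 and 48.9 FPKM. The levels of Psmb5 and Psmb7 overlapped, and Psmb6 lay above both in every library. Psmb5 has a near-identical pseudogene copy, Gm3375 (88.4% of the transcript, mean of 4.00 FPKM over the libraries), and 11.8% of the exonic length of Psmb7 overlaps Nek6 on the opposite strand.

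In the 19S particle, the ATPases spanned 43.5-fold and the other subunits 18.1-fold. Psmc3 was the most abundant of all 50 genes, with 532, 515 and 505 FPKM in Igf2bp3+/- RNA-seq, at percentile 99.6 of all symbols, while Psmc6, another member of the same ATPase ring, was at 12.6, 12.4 and 10.6 FPKM. Psmd2, which with Psmd1 forms the scaffold of the base, had the highest mean of the non-ATPase subunits, with 161, 171 and 176 FPKM, and the lowest mean was that of Psmd14, the deubiquitinase that removes ubiquitin chains, with 8.96, 10 and 9.09 FPKM. Psmd1 was at 18.8, 20.7 and 19.9 FPKM, far below Psmd2 in every library. The pseudogene copy of Psmd2, Gm5422, had a mean of 2.47 FPKM. Psmf1, which encodes the proteasome inhibitor and adaptor PI31, was the second most abundant gene, with 399, 414 and 388 FPKM.

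As classes, the chaperones that build the proteasome were less abundant in Igf2bp3+/- RNA-seq. The median of the gene means was 6.36 FPKM for the 20S and 11.8 FPKM for the 19S chaperones. That of the ordinary core genes was 24.6 FPKM, which Psmg2 exceeded. The 20S assembly chaperones form a pair of dimers, Psmg1 with Psmg2 and Psmg3 with Psmg4, and the partners were unequal in both. Psmg2 was at 31, 31.9 and 28.4 FPKM and Psmg1 at 8.28, 10.2 and 8.36 FPKM. Psmg4 was at 3.62, 4.75 and 2.89 FPKM and Psmg3 at 0.427, 0.776 and 0.407 FPKM, and the ranges did not overlap within either pair. Of the chaperones of the 19S base, Psmd9 had a mean of 15.9 FPKM, Psmd10 (gankyrin) of 11.8 FPKM and Psmd5 of 1.80 FPKM.

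The germline alpha subunit Psma8 was the main transcript of its pair. It stood at 18.6, 20 and 16.1 FPKM in Igf2bp3+/- RNA-seq, and at 16.7, 17.3 and 18.8 FPKM in Igf2bp3-/- RNA-seq. Its share of the summed FPKM of Psma7 and Psma8 was 82.9%, 84.2% and 83.2% in Igf2bp3+/- (83.4% ± 0.696, SD, n = 3) and 80.3%, 78.9% and 79.7% in Igf2bp3-/- (79.6% ± 0.739, SD, n = 3). The groups did not overlap, and the share was 3.79 percentage points lower in Igf2bp3-/-, where Psma7 was at 4.10, 4.65 and 4.78 FPKM. A two-sided exact permutation test gave p = 0.1, the smallest that 3 against 3 libraries allow (adjusted p = 0.6 over 16 tests of shares), so the design could not reach 0.05.

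In polysomes Psma8 was at 29.6, 15.4 and 25.1 FPKM in Igf2bp3+/- and at 18.5, 16.6 and 22.5 FPKM in Igf2bp3-/-. Its share there was 84.0%, 74.4% and 84.9% in Igf2bp3+/- and 67.6%, 75.5% and 78.6% in Igf2bp3-/-. These groups overlapped, and the difference of means, 7.22 percentage points lower in Igf2bp3-/-, was close to the spread within a group (SD 5.84 and 5.67 points; two-sided exact permutation p = 0.3, adjusted p = 0.6, n = 3). Psma8 was thus the larger part of the pair in each of the 12 libraries, and its lowest share was in 1 of the Igf2bp3-/- RNC-seq libraries.

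**Figure D2:**
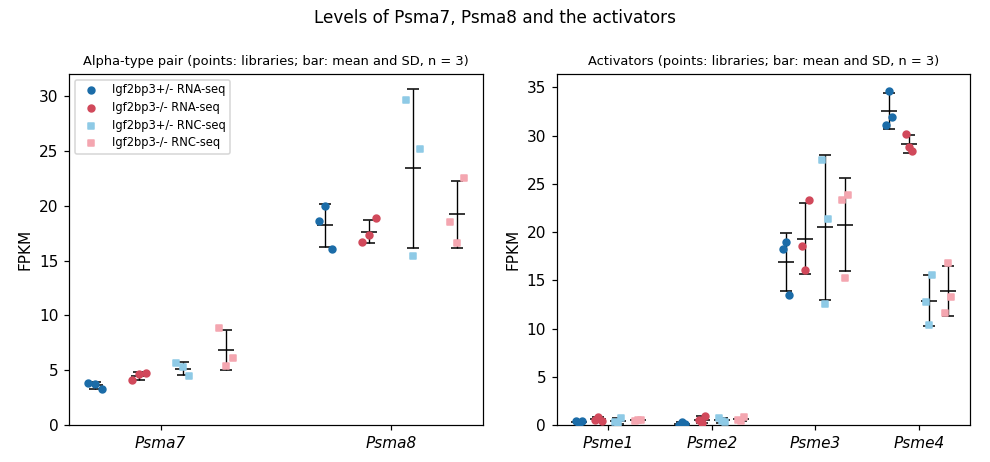
FPKM of Psma7 and Psma8 (left) and of the activators Psme1 to Psme4 (right) in each library, with the mean and SD of each group (n = 3). Psma8 lies above Psma7 in every group, Psme1 and Psme2 lie near 0, and Psme4 is lower in RNC-seq than in RNA-seq of both genotypes.

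The immune forms of the core were nearly absent at the RNA level. Psmb8 was at 0.0843, 0 and 0.129 FPKM in Igf2bp3+/- RNA-seq and at most 0.228% of the sum of Psmb5 and Psmb8 in any library. Psmb9 was listed at 0 in 8 of the 12 libraries and made up at most 0.0509% of the sum of Psmb6 and Psmb9. The pair Psmb8 and Psmb9 lies within the major histocompatibility region (GRCm38, chr17:34181987-34201454), and both genes overlap a transcript on the opposite strand (14.7% of the exonic length of Psmb8 with Gm20496, 5.79% of that of Psmb9 with Tap1), so that even these low values may not be theirs, as the sources used here do not say if the counting was stranded. The thymic Psmb11, a neighbour of Psmb5 on chromosome 14, did not exceed 0.0882 FPKM.

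Psmb10, the third immune beta subunit, was above these, at 0.658, 0.515 and 0.387 FPKM in Igf2bp3+/- RNA-seq, 0.813, 1.04 and 0.732 FPKM in Igf2bp3-/- RNA-seq, 2.34, 1.15 and 1.09 FPKM in Igf2bp3+/- RNC-seq and 1.21, 1.08 and 1.01 FPKM in Igf2bp3-/- RNC-seq. Against Psmb7, the subunit that it replaces, its share ran from 0.784% to 1.90% over the 12 libraries. None of the 16 comparisons of shares in the exchange pairs had an adjusted p under 0.6.

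The activators fell into a high and a low pair. Psme4 was at 31.1, 34.7 and 31.9 FPKM and Psme3, the nuclear activator PA28 gamma, at 18.2, 19 and 13.5 FPKM in Igf2bp3+/- RNA-seq. Psme1 and Psme2, the interferon-responsive PA28 alpha and beta, were at 0.368, 0.256 and 0.396 FPKM and at 0, 0.353 and 0.118 FPKM. Psme1 and Psme2 lie side by side on chromosome 14 (GRCm38, chr14:55578123-55591113), and Psme2 has a near-identical single-exon copy, Psme2b on chromosome 11, so reads may be split between these 2. Each library of Psme4 and Psme3 in this group was above each library of Psme1 and Psme2 by over 10 FPKM.

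Which of these mRNAs were carried by polysomes was read from the difference between RNC-seq and RNA-seq in Igf2bp3+/- cells. The genes of the 20S core, above all the beta ring, were higher in polysomes, while the 19S subunits were split and the activator Psme4 was lower. With limma on log2(FPKM + 0.1) and Benjamini-Hochberg adjustment over all 19798 genes tested, 22 of the 46 proteasome genes tested were higher and 4 lower in RNC-seq at an adjusted p under 0.05, where 43.6% of all genes were called (17.3% higher and 26.3% lower). The median log2 difference was 0.36 over the proteasome genes and -0.14 over all genes. The genes tested were those with a mean above 0.1 FPKM over the 6 libraries, which left out Psmb8, Psmb9, Psmb11 and Psme2b.

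All 7 ordinary beta subunits were called higher. The catalytic Psmb6 rose from 166, 166 and 136 FPKM in RNA-seq to 435, 371 and 358 FPKM in RNC-seq, a log2 difference of 1.32 ± 0.13 (SE; adjusted p = 0.000202). Psmb4, a structural subunit, went from 39.2, 41.4 and 38.7 FPKM to 103, 89.2 and 96 FPKM (1.27 ± 0.11 on the log2 scale; adjusted p = 0.000129). For both genes every RNC-seq library was above every RNA-seq library. The other 5 beta subunits differed by between 0.94 (Psmb7) and 1.11 (Psmb2) on the log2 scale. Psmb1 went from 21.8, 22.3 and 16.2 FPKM to 45.2, 36.2 and 44.9 FPKM, Psmb2 from 24.9, 23.1 and 18.4 FPKM to 54.7, 38.9 and 50.7 FPKM, and Psmb3 from 18.7, 20.2 and 14.9 FPKM to 39.7, 37.5 and 35.7 FPKM. In the catalytic pair, RNC-seq stood at 121, 104 and 120.0 FPKM for Psmb5 and 121, 79.2 and 114 FPKM for Psmb7, above the RNA-seq values of each.

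Of the alpha subunits, 5 of 7 were called higher, of which Psma2, Psma3 and Psma5 kept the call under all 18 alternative settings. Psma1 lost it under 6 of the 18 (adjusted p up to 0.0919) and Psma7 under 9 (up to 0.12). Psma2 had the largest difference, from 4.33, 4.29 and 3.69 FPKM in RNA-seq to 14.1, 7.64 and 11.2 FPKM in RNC-seq (1.36 ± 0.22 on the log2 scale; adjusted p = 0.00182), and the RNC-seq range lay wholly above. Psma5 went from 22.5, 25.6 and 19.9 FPKM to 57.5, 32.6 and 53.9 FPKM (1.04 ± 0.22; adjusted p = 0.00549). Psma4 and Psma6 did not pass the test, and Psma6, the most abundant alpha gene, overlapped between the assays (407, 239 and 316 FPKM in RNC-seq). Nor did the germline Psma8, with a log2 difference of 0.31 ± 0.23 and an adjusted p of 0.301, although it did pass without the second RNC-seq library (0.59 on the log2 scale). In that library the summed FPKM of the 14 ordinary core genes was 1149.6 against 1561 and 1366 in the others, and 684 to 819 in RNA-seq.

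Outside the core, the assembly chaperone Psmg4 showed the largest difference of all, but the chaperones were not all higher. Psmg4 rose from 3.62, 4.75 and 2.89 FPKM to 14.7, 14.1 and 12 FPKM (1.85 ± 0.20 on the log2 scale; adjusted p = 0.000266), and Psmg2 from 31, 31.9 and 28.4 FPKM to 73.5, 47.8 and 63.3 FPKM (0.99 ± 0.17; adjusted p = 0.00191). Psmg1 was higher as well, as was the 19S chaperone Psmd10. Psmg3, the partner of Psmg4, had a log2 difference of -0.78, with 0.542, 0.559 and 0.00860 FPKM in RNC-seq. The 19S chaperone Psmd5 had 0.23, and neither of these was called. Psmd9, another 19S chaperone, was called (adjusted p = 0.0337) but lost the call under 7 of the 18 alternatives, among them the replicate block (adjusted p = 0.0601). Psmb10 was the only immune subunit tested and was called higher (1.33 ± 0.33; adjusted p = 0.0121), at levels of 0.387 to 2.34 FPKM. The summed markers of macrophages and antigen presentation were 9.28 to 10.9 FPKM in RNA-seq and 7.53 to 8.26 FPKM in RNC-seq of this genotype.

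The 19S particle had 3 subunits higher and 3 lower in polysomes among 17, where 17.3% of all genes were higher and 26.3% lower. Psmc4 and Psmd6 were higher under all 18 alternatives, whereas Psmd8 lost its call under 8 of them (adjusted p up to 0.606). The scaffolds Psmd1 and Psmd2 and the lid subunit Psmd13 were lower. Psmd1 fell from 18.8, 20.7 and 19.9 FPKM to 9.18, 8.88 and 11.8 FPKM (-0.996 ± 0.15 on the log2 scale; adjusted p = 0.00114) and Psmd2 from 161, 171 and 176 FPKM to 88.6, 90.1 and 113 FPKM (-0.81 ± 0.13; adjusted p = 0.00147), with no overlap for either. Psmd13 differed by -0.50, from 42.6, 45.2 and 48.3 FPKM to 30.4, 30.7 and 34.8 FPKM, and lost its call under 1 of the 18, centring of the libraries. Psmc3, the most abundant gene, was at 575, 522 and 592 FPKM in RNC-seq and did not pass the test.

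Psme4 had the largest difference downwards of the proteasome genes. It fell from 31.1, 34.7 and 31.9 FPKM in RNA-seq to 12.8, 10.3 and 15.6 FPKM in RNC-seq (-1.35 ± 0.16 on the log2 scale; adjusted p = 0.000452), and the ranges did not overlap. Psme3, at 27.5, 12.6 and 21.4 FPKM in RNC-seq, and Psmf1, at 367, 405 and 381 FPKM, overlapped their RNA-seq values. Over the whole set, 23 genes had all RNC-seq libraries above all RNA-seq libraries and 5 had them below, where 21.6% and 34% of all genes did so. Centring of each library to a common median shifted the calls over all genes from 3431 higher and 5205 lower to 4848 higher and 4109 lower, and those of the proteasome genes from 22 and 4 to 24 and 3.

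**Figure D3:**
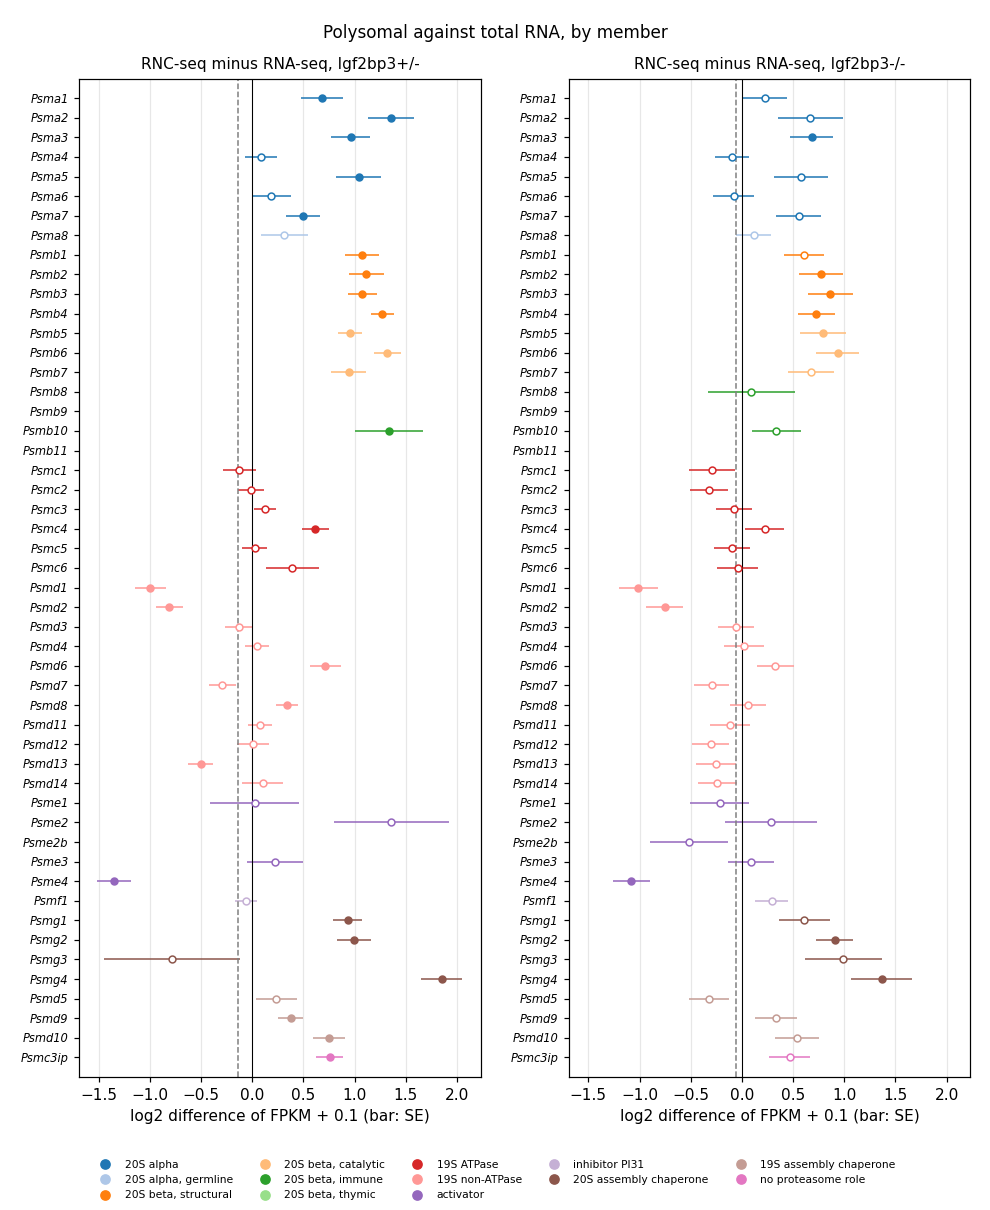
Log2 difference between RNC-seq and RNA-seq (x axis; bar: SE) of each gene tested in Igf2bp3+/- (left) and Igf2bp3-/- (right) cells; filled points have an adjusted p under 0.05, colours mark the role, and the dashed line is the median of all genes. The beta subunits and Psmg4 lie to the right of 0 in both genotypes, and Psme4, Psmd1 and Psmd2 to the left.

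In Igf2bp3-/- cells the same comparison called 8 of 48 genes higher and 3 lower, where 20.5% of all genes were called, 9.48% higher and 11% lower. All 8 and all 3 were among the genes called in Igf2bp3+/-, making up 36.4% of the genes called higher there and 75% of those called lower. Over all genes, 85.5% of the higher and 87.4% of the lower calls in Igf2bp3-/- were shared, making up 46.9% and 36.7% of those in Igf2bp3+/-. The beta ring again led, with 5 of 7 called. Psmb6 was at 194, 232 and 259 FPKM in RNA-seq and 553, 340.0 and 434 FPKM in RNC-seq (0.94 ± 0.21 on the log2 scale; adjusted p = 0.0156). Psmb2, Psmb3, Psmb4 and Psmb5 were also higher, by between 0.73 and 0.86, as was the alpha subunit Psma3 (0.68 ± 0.21; adjusted p = 0.0468). Psmb3 went from 20.8, 23.7 and 28.3 FPKM to 58.1, 34.3 and 42.4 FPKM, Psmb2 from 27.4, 30.1 and 32.4 FPKM to 65.6, 37.2 and 54.9 FPKM and Psma3 from 50.6, 56.2 and 56.4 FPKM to 100.3, 63.2 and 105 FPKM.

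The assembly chaperones Psmg4 and Psmg2 were higher in polysomes of Igf2bp3-/- cells too, Psmg4 at 3.86, 3.62 and 6 FPKM in RNA-seq and 15.5, 7.42 and 13 FPKM in RNC-seq. Psme4 fell from 30.1, 28.8 and 28.4 FPKM to 11.6, 16.7 and 13.2 FPKM (-1.08 ± 0.18; adjusted p = 0.00567), and Psmd1 from 17.7, 19.7 and 18.8 FPKM to 10.5, 10.2 and 7.36 FPKM (-1.01 ± 0.19; adjusted p = 0.00819). Both groups of libraries were apart for each of these 3 genes. Psmg2 was at 38.5, 38.1 and 42 FPKM in RNA-seq and 85, 59.7 and 79.9 FPKM in RNC-seq, and Psmd2, the third gene called lower, at 161, 191 and 203 FPKM and 113, 128 and 90.2 FPKM. In this genotype 14 genes had RNC-seq wholly above RNA-seq and 4 wholly below, against 18.2% and 22.3% of all genes.

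The count of calls in Igf2bp3-/- cells rested on single libraries. It was 2, both lower, without RNA-seq replicate 1 or without RNA-seq replicate 2, 5 without RNA-seq replicate 3, 6 without RNC-seq replicate 1, 21 without RNC-seq replicate 2 and 5 without RNC-seq replicate 3. Without RNA-seq replicate 1 or 2 none of the core genes passed the test, whereas Psme4 and Psmd1 passed in every case. The share called over all genes moved in the same way, from 20.5% to 5.75% without RNA-seq replicate 1, 6.46% without RNA-seq replicate 2, 8.53% without RNA-seq replicate 3, 14.1% without RNC-seq replicate 1, 32.7% without RNC-seq replicate 2 and 12.2% without RNC-seq replicate 3.

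Polysome differences followed transcript length among the proteasome genes as they did among all genes. Of the 43 genes with a mean of at least 1 FPKM over the libraries, the 16 with a longest annotated transcript of up to 1500 bases had a median log2 difference of 0.94 in Igf2bp3+/-, the 21 of 1500 to 3000 bases had 0.31, and the 6 above 3000 bases had -0.43. For all protein-coding genes at that level the medians were 0.60, -0.02 and -0.59. Psmg4 was the shortest, with 555 bases, and Psme4 the longest, with 6491 bases, and they marked the ends of the range of differences as well. Spearman's rho between length and difference was -0.559 over the 43 genes and -0.539 over 9166 protein-coding genes in Igf2bp3+/-, and -0.551 and -0.508 in Igf2bp3-/-. These are descriptions across genes of the same libraries, and genes are not independent replicates.

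**Figure D4:**
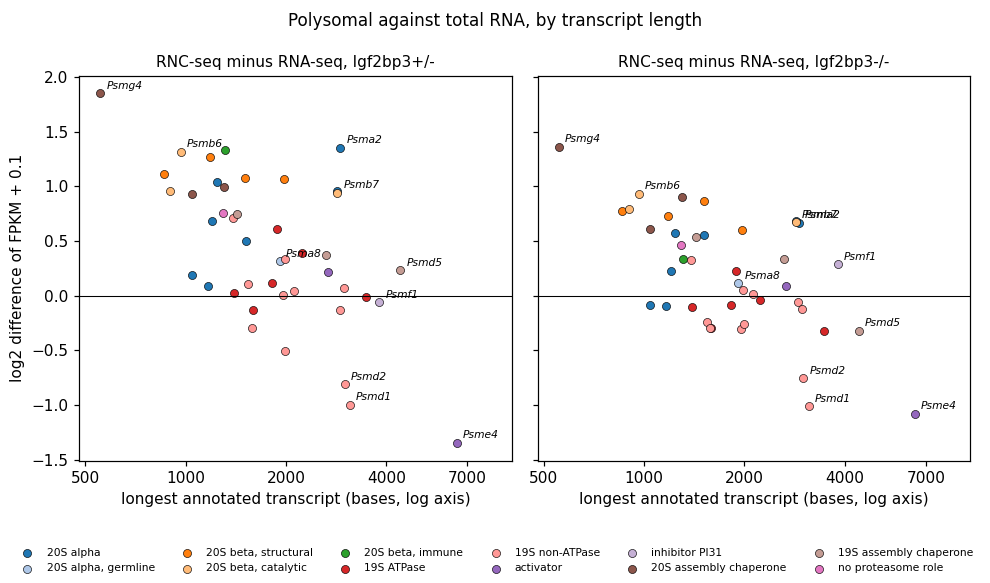
Log2 difference between RNC-seq and RNA-seq (y axis) against the length of the longest annotated transcript (x axis, log scale) for the 43 genes with a mean of at least 1 FPKM, in Igf2bp3+/- (left) and Igf2bp3-/- (right). The short Psmg4 lies at the top and the long Psme4 at the bottom in both panels, and Psma2 and Psmb7 lie above most genes of their length.

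Within each class of length the proteasome genes had the higher median in Igf2bp3+/-. In Igf2bp3-/- their medians were 0.56, 0.06 and -0.54 in the short, middle and long class, beside 0.46, 0.01 and -0.36 for all protein-coding genes, so that in the long class the proteasome genes had the lower median. With the trend against length removed from every library, a step chosen after the data had been seen, 24 of 46 were higher and 5 lower in RNC-seq (median log2 difference 0.44). Over all genes 20.2% were then higher and 18.4% lower. In Igf2bp3-/- 9 of 48 were then higher and 3 lower, where 8.78% and 7.87% of all genes were. Whether length itself has a part in the differences was not tested.

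Genes of proteins that act with the proteasome but carry other names were examined as a separate list. The list held ubiquitin genes, shuttle factors and the transcription factor Nfe2l1, among others. Of its 35 symbols, some of which are alternative names of the same gene, 30 were in the table. In Igf2bp3-/- 3 of the 30 were higher and 8 lower in polysomes, where 9.48% and 11% of all genes were. In Igf2bp3+/- 5 were higher and 13 lower, where 17.3% and 26.3% of all genes were. The median log2 difference in Igf2bp3+/- was -0.50, against -0.14 over all genes. The ones higher in Igf2bp3+/- included Sem1, a small subunit of the 19S lid that the naming rule does not reach, which rose from 79.8, 72.5 and 49.4 FPKM to 283, 252 and 228 FPKM (1.94 ± 0.19; adjusted p = 0.000164). Pomp, the chaperone of the core, was higher too (1.12 ± 0.16; adjusted p = 0.000841).

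Lower in polysomes were AI314180 (Ecm29), which tethers the 19S particle to the core, from 3.39, 3.05 and 3.93 FPKM to 0.591, 0.972 and 1.39 FPKM (-1.78 ± 0.29; adjusted p = 0.00165), Akirin2, a factor for nuclear import of proteasomes (-1.49 ± 0.13; adjusted p = 0.000109), and the ubiquitin receptor Adrm1 (-0.58 ± 0.14; adjusted p = 0.0106). The deubiquitinases of the 19S particle that these names miss, Uchl5 and Usp14, had an adjusted p of 0.0755 and 0.108. In none of the 3 comparisons between genotypes did any of the 30 genes pass the test.

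The question of the genotype comparison was whether loss of Igf2bp3 changed these genes. In total RNA no proteasome gene passed the test (limma, 47 tested, smallest adjusted p = 0.145, for Psmb7), while 0.256% of all 20352 genes did (0.197% higher and 0.059% lower). Most were nonetheless at somewhat higher FPKM in Igf2bp3-/- cells. The log2 difference was above 0 for 43 of 47 genes, where 56.2% of all genes were above 0, with a median of 0.33 against 0.05 over all genes. At an unadjusted p under 0.05, 31 were higher and 0 lower, against 10.4% and 5.32% of all genes, and 31 had all Igf2bp3-/- libraries above all Igf2bp3+/- libraries while 1, Psme4, had them below, against 14.1% and 8.68%.

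All 14 ordinary core genes were among the 31 at the unadjusted limit, with log2 differences from 0.27 (Psma6) to 0.55 (Psmb6). Psmb6 was at 166, 166 and 136 FPKM in Igf2bp3+/- and at 194, 232 and 259 FPKM in Igf2bp3-/- (0.55 ± 0.13; unadjusted p = 0.00224, adjusted p = 0.158). Psmb7 was at 54.7, 57.1 and 48.9 FPKM and 70.7, 74.2 and 70.5 FPKM (adjusted p = 0.145). For both genes the groups did not overlap. The summed FPKM of the 14 genes was 785, 819 and 684 in Igf2bp3+/- and 898, 1008 and 1059.9 in Igf2bp3-/-.

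The 19S subunits had a median log2 difference of 0.24, where that of the core was 0.38, with 16 of 17 above 0 and 9 at an unadjusted p under 0.05. Psmd1, the lowest of them, was at 18.8, 20.7 and 19.9 FPKM in Igf2bp3+/- and 17.7, 19.7 and 18.8 FPKM in Igf2bp3-/- (-0.08 ± 0.09; adjusted p = 0.715), with overlap. Psmd10, a 19S chaperone, was at 12.7, 12.8 and 9.92 FPKM and 16, 16.1 and 17.4 FPKM (0.49 ± 0.12; adjusted p = 0.169), without overlap.

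The germ cell members Psma8 and Psme4 were not among the 31. Psma8 had a log2 difference of -0.04 ± 0.11 (adjusted p = 0.883), with a range in Igf2bp3+/- that held all of the Igf2bp3-/- values. Psme4 was at 31.1, 34.7 and 31.9 FPKM in Igf2bp3+/- and at 30.1, 28.8 and 28.4 FPKM in Igf2bp3-/- (-0.16 ± 0.09; adjusted p = 0.412), slightly lower in every Igf2bp3-/- library.

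The immune-type members stood at the other end. Psmb10 was at 0.658, 0.515 and 0.387 FPKM and 0.813, 1.04 and 0.732 FPKM (0.64 ± 0.25; adjusted p = 0.272), Psme1 at 0.368, 0.256 and 0.396 FPKM and 0.557, 0.834 and 0.459 FPKM, and Psme2 at 0, 0.353 and 0.118 FPKM and 0.490, 0.185 and 0.910 FPKM. Groups did not overlap for Psmb10 and Psme1 and overlapped for Psme2, all below 1.1 FPKM. Markers of macrophages and antigen presentation moved the same way in RNA-seq: 13 of 13 had a log2 difference above 0 (56.2% of all genes), with 1 called higher (0.197% of all genes). Their sum was 9.28 to 10.9 FPKM in Igf2bp3+/- and 15.1 to 17.4 FPKM in Igf2bp3-/-, with none at 0 in all libraries of a group. In RNC-seq 10 of 10 tested markers were above 0 (65.3% of all genes), while Psmb10 was at -0.36 and Psme1 at 0.44. The part of these markers' cells in the values of Psmb10, Psme1 and Psme2 was not tested.

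Some of the other cell marker lists also moved with genotype in RNA-seq, as did genes by transcript length. Summed Leydig cell markers were 15.4 to 22.6 FPKM in Igf2bp3+/- and 48.6 to 55.0 FPKM in Igf2bp3-/- (4 of 7 called higher), peritubular markers 1.86 to 2.20 and 5.59 to 6.84 FPKM, Sertoli markers 3.45 to 4.32 and 7.13 to 7.95 FPKM, blood markers 6.58 to 7.22 and 11.8 to 14.3 FPKM, and round spermatid markers 1774 to 1977 and 2197 to 2511 FPKM. Sums of the remaining lists overlapped between the genotypes. The elongating spermatid sum was 9383 to 12082 and 10499 to 10577 FPKM, the spermatocyte sum 102 to 125 and 119 to 146 FPKM, and the spermatogonial sum 7.41 to 10.4 and 7.59 to 9.66 FPKM. In bulk RNA, fewer cells of a type and less RNA per cell cannot be told apart.

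By length, the median difference between genotypes was 0.38, 0.27 and 0.05 in the short, middle and long proteasome genes and 0.24, 0.12 and -0.02 in all protein-coding genes of the same classes. With the trend against length removed, the proteasome median was 0.21, and the unadjusted limit was passed by 24 genes upwards and 0 downwards. The count at that limit was 18 without Igf2bp3+/- replicate 3 or without Igf2bp3-/- replicate 2, 16 without Igf2bp3-/- replicate 3 and 12 in 1 fit over all 12 libraries. With the most abundant symbol, CT010467.1, left out, 26 of 48 genes tested passed that limit upwards and 1 downwards. The proteasome median was then 0.28, against 0.002 over all genes.

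**Figure D5:**
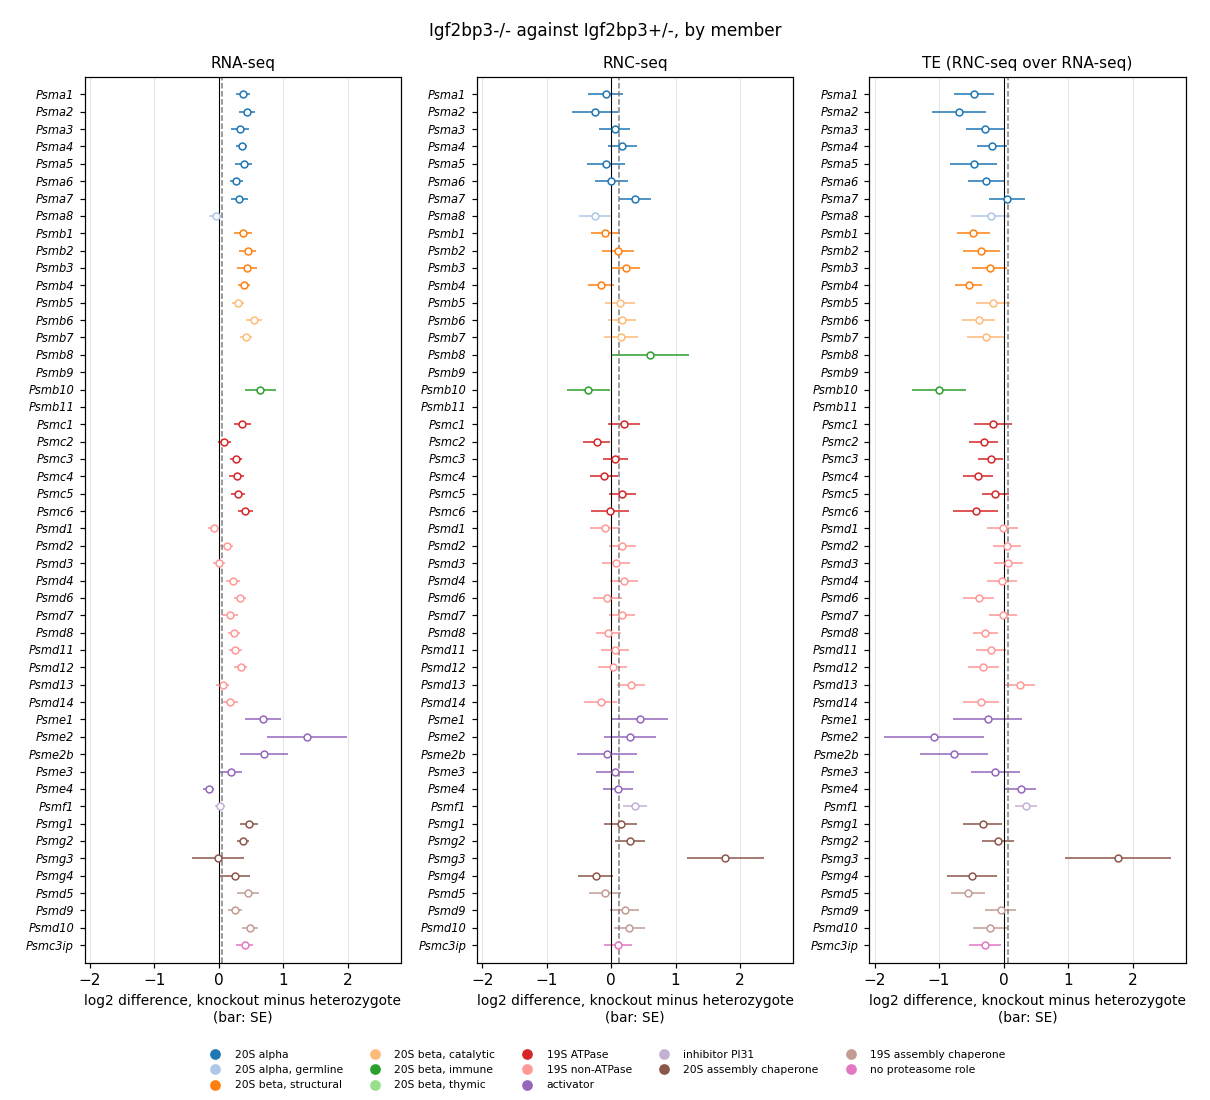
Log2 difference between Igf2bp3-/- and Igf2bp3+/- (x axis; bar: SE) of each gene tested in RNA-seq (left), RNC-seq (middle) and TE (right); no gene has an adjusted p under 0.05, so all points are open, and the dashed line is the median of all genes. In RNA-seq 43 of 47 genes lie above 0, and in TE 40 of 47 lie below it.

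In polysomal RNA the genotypes were not distinguished. None of 48 proteasome genes tested passed the test, where 0.115% of all 19051 genes did (0.0787% higher and 0.0367% lower), and the median log2 difference was 0.09 against 0.13 over all genes. The difference was above 0 for 31 genes (65.3% of all genes), and 2 genes, Psmg3 and Psmf1, had all Igf2bp3-/- libraries above all Igf2bp3+/- libraries (9.44% of all genes), with 0 below (1.85%). Psmf1 was at 367, 405 and 381 FPKM in Igf2bp3+/- and 545, 512 and 434 FPKM in Igf2bp3-/- (0.37 ± 0.19; adjusted p = 0.787). Psmd13, at 30.4, 30.7 and 34.8 FPKM and 50.5, 38.8 and 31.5 FPKM (0.31 ± 0.22; adjusted p = 0.831), and Psma2, at 14.1, 7.64 and 11.2 FPKM and 11.5, 4.96 and 12.4 FPKM (-0.25 ± 0.35; adjusted p = 0.915), lay on opposite sides of 0.

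Psmg3 was the only gene below an unadjusted p of 0.05, a limit that 5.36% of all genes passed upwards (limma, adjusted p = 0.689). It was at 0.542, 0.559 and 0.00860 FPKM and 1.37, 0.938 and 1.09 FPKM, and its gap between genotypes rests in part on 1 library near 0. For the core genes the spread between RNC-seq libraries was wider than in RNA-seq: their sum was 1561, 1149.6 and 1366 FPKM in Igf2bp3+/- and 1740.1, 1066 and 1536 FPKM in Igf2bp3-/-, with the second library lowest in both genotypes. Psmb6, at 435, 371 and 358 FPKM and 553, 340.0 and 434 FPKM, shows the same overlap. The median of the proteasome genes turned to -0.03 when libraries were centred on their medians and to -0.06 without Igf2bp3-/- replicate 1.

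Translational efficiency (TE), the ratio of RNC-seq to RNA-seq, combines these libraries and so is not independent of the RNA-seq difference above. No proteasome gene passed the test for a genotype difference in TE (limma interaction term, 47 tested, smallest adjusted p = 0.686), and 0.00543% of all 18414 genes did. The log2 difference was below 0 in 40 of 47 genes, with 7 above 0 (55.6% of all genes above 0) and a median of -0.27 against 0.06 over all genes. At an unadjusted p under 0.05, 2 genes were lower, against 1.58% of all genes, and 0 were higher, against 5.54%.

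These 2 were Psmb4 and Psmb10. Psmb4 was at 46.7, 55.2 and 54.6 FPKM in RNA-seq and 100.1, 69 and 93 FPKM in RNC-seq of Igf2bp3-/- cells, with the Igf2bp3+/- values given above (unadjusted p = 0.0235 by limma). Psmb10 had a log2 difference in TE of -1.0 ± 0.41 (adjusted p = 0.686). Psmf1, with 0.35 ± 0.17 (adjusted p = 0.712), and Psme4, with 0.27 ± 0.24 (adjusted p = 0.799), were on the other side of 0, and Psma8 was at -0.20 ± 0.30 (adjusted p = 0.869). Among genes with a mean of at least 1 FPKM over the libraries, Psmb10 had the lowest difference. Next came Psma2 (-0.69 ± 0.42; adjusted p = 0.731) and the 19S chaperone Psmd5 (-0.56 ± 0.26; adjusted p = 0.708). Psmd13 was at 0.25 ± 0.23 (adjusted p = 0.805). Psmd5 was at 2.03, 1.92 and 1.44 FPKM in RNA-seq and 2.09 to 2.14 FPKM in RNC-seq of Igf2bp3+/- cells, and at 2.35, 2.43 and 2.65 FPKM and 2.12, 2.03 and 1.76 FPKM in Igf2bp3-/- cells. By length, the median TE difference was -0.33, -0.20 and 0.02 for the short, middle and long proteasome genes and -0.14, 0.01 and 0.19 for all protein-coding genes, and the difference of Psme4 turned to -0.025 once the trend against length was removed.

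The promoters of the proteasome genes were examined because many of the genes moved together. RefSeq (GRCm38.p6) gave a promoter, 250 bases before to 50 after the start, for 42 of the 50 genes. Psma8, Psmb1, Psmb2, Psmb7, Psmc3, Psmd3, Psmd7 and Psmg2 had none and were not searched. The core of the antioxidant response element, TGACNNNGC on either strand, to which the proteasome regulator Nfe2l1 binds, was in the promoters of 6 of the 42 (14.3%), against 15.8% of 15550 genes. The cyclic AMP element TGACGTCA, bound by the spermatid factor CREM, was in 0 (2.93% of all), CCAAT in 15 (35.7% and 41.8%) and GGGCGG in 23 (54.8% and 53.4%). Counted by promoter instead of by gene, GGGCGG was in 24 of 45 (53.3%, against 48.9% of all 19415 promoters), and the other 3 motifs were less frequent than in all promoters. In 4 genes the antioxidant motif began within 50 bases before the start. The windows below, with the motif in capitals, show 3 of these genes, which mark both directions of the polysome comparison: the catalytic genes Psmb5 (chr14:54618024-54618052, minus strand) and Psmb6 (chr11:70525338-70525366, plus strand), whose RNA was higher in polysomes, and Psme4 (chr11:30771758-30771786, plus strand, motif on the opposite strand), whose RNA was lower.
Psmb5: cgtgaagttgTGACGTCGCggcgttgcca
Psmb6: ctaaagagagTGACGGAGCgctttacgac
Psme4: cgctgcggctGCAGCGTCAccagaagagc
The motif began 47 bases before the RefSeq start in Psmb5, 9 in Psmb6 and 7 in Psme4. A match describes these letters only, and genes in which it was found lay on both sides of the polysome comparison.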

How the data were processed

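The authors deposited 1 table of FPKM values for the 12 libraries, made, per the labels and the study's methods, with Trim Galore 0.6.6, HISAT2 and StringTie 2.1.7 on GRCm38; the annotation release and the use of strand are not given in the sources used here, and the labels and the methods name different library kits and instruments. The authors' counts were not used here. Columns called WT are Igf2bp3+/- by the labels. Of 28668 symbols, 25 had been turned into dates and were left out.

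Values were analysed as log2(FPKM + 0.1), a scale that understates changes of low genes, with limma 3.58.1 (empirical Bayes with an intensity trend) in R 4.3.3, two-sided, among genes with a mean FPKM above 0.1 (in both assays for TE), with Benjamini-Hochberg adjustment over all genes and a limit of 0.05. TE was the interaction of genotype and assay. Shares within exchange pairs were compared by exact permutation. The scripts were tested on simulated data, with changes larger than any genotype difference of a proteasome gene here. That test does not show whether small differences would be found. Lengths and positions came from GENCODE M21, with 27839 symbols matched. By BLAST, 7 of the 50 genes have a near-identical copy (95% identity or more across 50% or more of their transcript), among them Psma4, Psma5, Psmb5, Psmc1 and Psmd2, and by position 4 share bases with a gene of the same strand and 12 with one of the other strand, so their values are uncertain by that much.

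The genes and lists were chosen with earlier results of these data known. Values by library are given, in at least 1 group, for the subunits with a special role (exchange pairs, activators, Psmf1, Psmd14, Psmc3ip; limits only for Psmb9, Psmb11 and Psme2b) and, in each comparison, for those past the limit (at most the 10 with the largest difference in each direction) and those with the 3 highest and 3 lowest differences at a mean of at least 1 FPKM; Psma6, Psmc3, Psmc6, Psmg1, Psmg3 and Psmd9 were added after their values were seen. By the study's methods, cells of each mouse were lysed and part of the extract was kept as input while the rest was fractionated, so RNA-seq and RNC-seq libraries are matched by design; neither the labels nor the methods say that equal replicate numbers mark the same extract, and the fits carry no block except as an alternative. Alternatives were the pseudocount, the filter, scaling, library weights, the variance trend, a replicate block, 1 fit over all libraries, leaving out each library and, added later, removal of the trend against length.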

Additional observations from a re-analysis of the deposited data

How the results depend on the processing

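Settings were changed 1 at a time. In RNA-seq, RNC-seq and TE between genotypes, 0 proteasome genes passed the adjusted limit under any alternative. With a fold over 1.5 and an unadjusted p below 0.05, 2 passed in RNA-seq, both higher (of all genes 2.92% higher and 2.53% lower), 1 in RNC-seq, higher (4.73% and 1.06%), and 1 in TE, lower (5.19% and 1.37%). The study's appendix gives these limits for RNA-seq and RNC-seq, while its methods put 1.5 on the log2 scale. It states no p-value limit for TE. The RNA-seq median was between 0.26 and 0.39 when 1 library was left out and fell to 0.21 with the trend against transcript length removed. The TE median ran from -0.45, without Igf2bp3-/- replicate 1, to -0.11. The RNC-seq median ran from -0.06 to 0.21 when 1 library was left out and was -0.04 after quantile normalization. For RNC-seq against RNA-seq in Igf2bp3+/-, 22 to 27 genes were called when 1 library was left out, and the median was 0.26 to 0.50 (0.50 without RNC-seq replicate 2) and 0.53 with libraries centred. In Igf2bp3-/-, 2 to 21 genes were called, 18 with library weights and 5 without the intensity trend. With 1 library left out, Psma8 ran from -0.13 to 0.027 in RNA-seq between genotypes (0.027 without Igf2bp3+/- replicate 2) and from -0.0074 (without RNC-seq replicate 3) to 0.21 in RNC-seq against RNA-seq of Igf2bp3-/-, and Psma2 from -0.49 to 0.17 in RNC-seq between genotypes (0.17 without Igf2bp3-/- replicate 2). Psme4 turned to -0.025 in TE with the length trend removed; the cause was not tested. With the replicate block 25 genes were called in Igf2bp3+/- and 11 in Igf2bp3-/-, the same numbers as or 1 fewer than without it, and 0 between genotypes; libraries of 1 genotype with the same number correlated between -0.104 and 0.205 across assays in their deviations from group means, and 2 of 3 libraries of each assay and genotype correlated best with their own number, so whether equal numbers mark 1 cell extract could not be told. The block took away the call of Psmd9 in Igf2bp3+/- (adjusted p = 0.0601) and changed no other. Of the calls in Igf2bp3+/-, 18 of 22 higher and 3 of 4 lower were kept under all 18 alternatives, and in Igf2bp3-/- 0 of 8 and 2 of 3. Depth is unknown, so levels near 0 have no counting interval.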

Other observations

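Psmb6-ps2, a pseudogene copy of the catalytic subunit gene Psmb6 that the naming rule leaves out, was at 0.0670, 0.219 and 0.155 FPKM in Igf2bp3+/- and 0.478, 0.735 and 0.459 FPKM in Igf2bp3-/- RNA-seq, with no overlap, while Psmb6 was at 166, 166 and 136 and 194, 232 and 259 FPKM. In RNC-seq it was at 1.32, 0.788 and 1.27 FPKM and 1.37, 1.32 and 0.803 FPKM, which overlap. Whether reads of Psmb6 were counted there was not tested.

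Psmc3ip, the recombination factor that shares its name stem with the ATPase gene Psmc3, was at 61.6, 57.5 and 46.5 FPKM in Igf2bp3+/- RNA-seq and 96.6, 93.7 and 87.6 FPKM in RNC-seq, and 21.2% of its exonic length overlaps Mlx on the opposite strand. Its RNA-seq values in Igf2bp3+/- cells overlapped those of the catalytic subunit genes Psmb5 and Psmb7.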
